A study of Canis lupus familiaris with 7 samples.

Results

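The NADPH oxidase genes CYBB, CYBA, NCF1, NCF4, NOX4, RAC1 and RAC2, together with POLDIP2, were measured in left ventricle samples of dogs on a low-salt diet and of control dogs. Every probe set, a short group of probes aimed at 1 transcript, whose platform annotation gave one of these 8 symbols alone was taken, which gave 17 of 42924 probe sets. The low-salt group was 4 samples (numbered 1 to 4) from adult male mongrel dogs given a diet with 0.5% sodium chloride for 2 weeks, and the control group was 3 samples (numbered 1, 3 and 4) from male dogs whose salt intake the labels leave out. Nothing in the labels states that different arrays came from different animals, and the p-values therefore describe the spread among these arrays. According to the design text 10 dogs received the diet, and their relation to the 4 arrays is not stated. The title of the series ties the comparison to mechanisms of heart disease under low dietary salt.

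NADPH oxidases are membrane enzymes that pass electrons from NADPH to oxygen and so make superoxide or hydrogen peroxide. CYBB encodes NOX2, the catalytic subunit of phagocytes that is also found in heart and vessel cells, and CYBA encodes p22phox, the membrane partner that stabilises it. NOX2 works only when cytosolic subunits, among them the organiser p47phox (NCF1) and p40phox (NCF4), and a RAC GTPase join it at the membrane. NOX4, found in cardiomyocytes and vessel walls, also needs p22phox but is active without the cytosolic subunits, and POLDIP2, a protein that binds p22phox, has been described as raising NOX4 activity in vascular smooth muscle cells. In the heart these enzymes are best known as sources of oxidants downstream of angiotensin II.

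The whole array set the frame for these genes. The deposited values are intensities on a linear scale, and tests used log2(intensity + 16) after quantile normalization, a scale that understates the change of dim probe sets. A filter on mean signal over all arrays left 28616 probe sets for the test with limma, and 14 of the 17 were among them. The precision is limited by the number of arrays. Low-salt 3 and control 4 stood apart, with median deposited intensities of 44.2 and 51.3, against 19.3 to 21.8 on the other low-salt arrays and 31.5 and 39.6 on the other controls. Over the array low-salt 3 correlated more closely with control 4 (0.947) than with the other low-salt samples (0.924 to 0.930), and the deviations of these 2 arrays from their group means correlated at 0.43. The GAPDH 3' to 5' signal ratio, a measure of RNA integrity, was read at 2 pairs of GAPDH probe sets. At pair 1 it was 2.03 to 2.41 in low salt and 2.43 to 2.78 in controls. At pair 2 it was 14.5 to 22.6 in low salt and 22.7 to 40.9 in controls, highest in control 1. The groups did not overlap at either pair. The cardiomyocyte markers fixed for the check of the tissue label were all tested, 10 of 10, with summed deposited intensities of 77934 to 104502 in low salt and 79232 to 124105 in controls.

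The most separated gene was POLDIP2, in 1 of its 2 probe sets. Probe set CfaAffx.28517.1.S1_at read 177, 210.2, 175 and 199 in deposited intensity in low-salt samples 1 to 4, against 92.5, 113 and 93.9 in controls 1, 3 and 4. All 4 low-salt values lay above the highest control, in the deposited values and after normalization. On the log2 scale it averaged 7.70 ± 0.15 (SD, n = 4) in low salt and 6.65 ± 0.35 (SD, n = 3) in controls. The difference was 1.06 ± 0.26 (SE) with a 95% confidence interval of 0.49 to 1.62, or 2.08-fold, and the unadjusted p of 0.00136 was number 273 of the 28616 by size. It did not pass over all probe sets (limma adjusted p = 0.141). The members were chosen with earlier results of these data known, so the p and interval are not those of a gene chosen beforehand.

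POLDIP2 was the 1 probe set of the 14 with an unadjusted p under 0.05, where 11% of all tested probe sets had one (5.29% higher and 5.76% lower in low salt). It was also the 1 of 14 whose groups did not overlap, against 10.8% of all tested probe sets (5.13% with low salt higher), and the 1 past the threshold of the design text, an unadjusted p of 0.05 with a 2-fold change, which 4.4% passed by limma (1.67% higher in low salt). The methods' t-test gave it an unadjusted p of 0.00267 and an adjusted p of 0.323, and 3.05% of probe sets passed the design text's threshold by that test. At an adjusted p of 0.05, 0 of the 14 passed in limma, against 0.342% of all tested probe sets (0.0384% higher in low salt), and 0 in the methods' t-test, against 0.014%. These counts of 1 in 14 are close to the shares over the array.

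With each array left out in turn the POLDIP2 difference ran from 0.95 to 1.24, and the unadjusted p stayed under 0.05 in all 7 fits. The 2-fold size was lost without low-salt 2 (0.98), low-salt 4 (0.98) or control 4 (0.95), and also with an offset of 64 (0.78), on the deposited scale and with array weights (0.98). Without low-salt 3 and control 4, an alternative chosen after seeing the data, it was 1.07 (limma adjusted p = 0.121). The difference was 0.83 on the deposited scale and 1.27 after the array medians had been made equal, while those scalings put the median of all tested probe sets at -0.18 and 0.26, and quantile normalization put it at 0.04. Relative to that median it was 1.02 with quantile normalization and 1.01 in both of the other scalings. Those 2 scalings differ only by 1 constant per array, so their equal values were fixed in advance. Both GAPDH ratios separated the same groups, and the part of RNA integrity in the POLDIP2 difference was not tested.

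The other POLDIP2 probe set gave no such separation. The suffix of Cfa.19472.1.S1_s_at marks, in the array maker's naming, probes shared by more than 1 transcript. The NOX4 probe set, the tested NCF1 one and some of CYBB, CYBA, NCF4, RAC1 and RAC2 carry the same suffix. Cfa.19472.1.S1_s_at read 5.48, 40.3, 31.9 and 47.4 in low-salt samples 1 to 4, against 69.0, 32.0 and 15.8 in controls 1, 3 and 4. Low-salt 1 was the lowest and control 1 the highest array, and the groups overlapped throughout. The difference was 0.12 ± 0.48 (SE), with an interval of -0.91 to 1.15 that also holds the value of the first probe set. The 2 changes differed by 0.93, with p = 0.171 in an exact two-sided permutation test over 35 splits of the arrays (adjusted p = 0.964 over 9 pairs of probe sets of the same gene). With these group sizes that test cannot go below 0.0571, which it reached with an offset of 64, so it could not settle whether the probe sets differ.

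**Figure D1:**
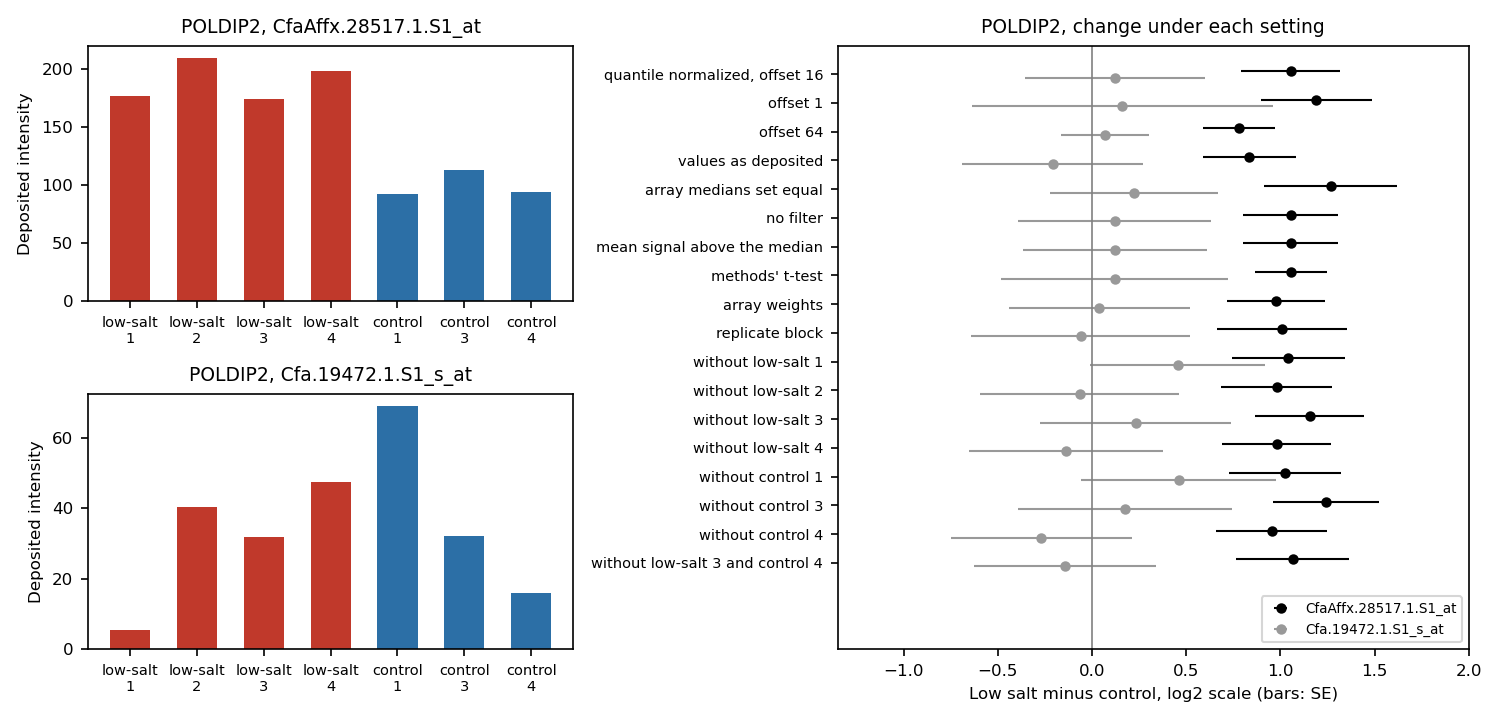
The deposited intensity of the 2 POLDIP2 probe sets on each array (left, red low salt, blue control) and the low salt minus control change of both under each setting with its SE (right, log2 scale). CfaAffx.28517.1.S1_at stays between 0.78 and 1.27 in every setting drawn, and Cfa.19472.1.S1_s_at lies on both sides of 0.

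The catalytic subunits were not separated from controls. NOX4 has 1 probe set, CfaAffx.7482.1.S1_s_at, which read 22.8, 31.4, 29.8 and 30.3 in deposited intensity in low-salt samples 1 to 4, against 56.4, 5.63 and 8.68 in controls 1, 3 and 4. Control 1 stood above every low-salt sample before normalization, and the other controls stood below all of them. On the log2 scale NOX4 averaged 5.67 ± 0.34 (SD, n = 4) in low salt and 4.93 ± 0.87 (SD, n = 3) in controls. The groups differed by 0.74 ± 0.43 (SE, limma adjusted p = 0.558), with an interval of -0.18 to 1.66. The size depended on single controls: it was 1.21 without control 1, with an unadjusted p of 0.00969 (limma adjusted p = 0.486), 0.51 without control 3 and 0.45 without control 4. It was 1.53 with an offset of 1, 0.30 with an offset of 64 and 0.39 on the deposited scale.

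CYBB, the NOX2 gene, is read by 3 probe sets, and all 3 were slightly higher in low salt without passing. Cfa.6017.1.S1_at, the brightest, read 98.6, 130.4, 142 and 116 in low-salt samples 1 to 4, against 149.5, 104 and 88.9 in controls 1, 3 and 4. Its highest value was that of control 1, so the groups overlapped. The difference was 0.36 ± 0.29 (SE), with an interval of -0.26 to 0.98, and it was 0.09 without control 4, 0.59 without control 1 and 0.10 on the deposited scale. CfaAffx.21511.1.S1_s_at and CfaAffx.21514.1.S1_s_at differed by 0.26 ± 0.34 (SE) and 0.27 ± 0.36 (SE), and both changed sign with the values as deposited, to -0.17 and -0.14. Adjusted p for the 3 was 0.675 to 0.833 by limma.

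CYBA, the partner that NOX2 and NOX4 share, lay close to 0 in both probe sets. CfaAffx.30428.1.S1_at read 1374, 982, 1047 and 831 in low-salt samples 1 to 4, against 1007, 1157 and 769.9 in controls 1, 3 and 4. The highest value was a low-salt one and the lowest a control, with full overlap between. The difference was -0.02 ± 0.20 (SE) under quantile normalization, with an interval of -0.45 to 0.41. Cfa.20770.1.S1_s_at read 63.0, 55.0, 71.6 and 57.0 in low salt, against 107, 57.5 and 80.3 in controls, a difference of 0.04 ± 0.30 (SE). The sign of both turned with the scaling: they were 0.11 and -0.30 on the deposited scale, and 0.54 and 0.13 after array medians had been made equal.

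**Figure D2:**
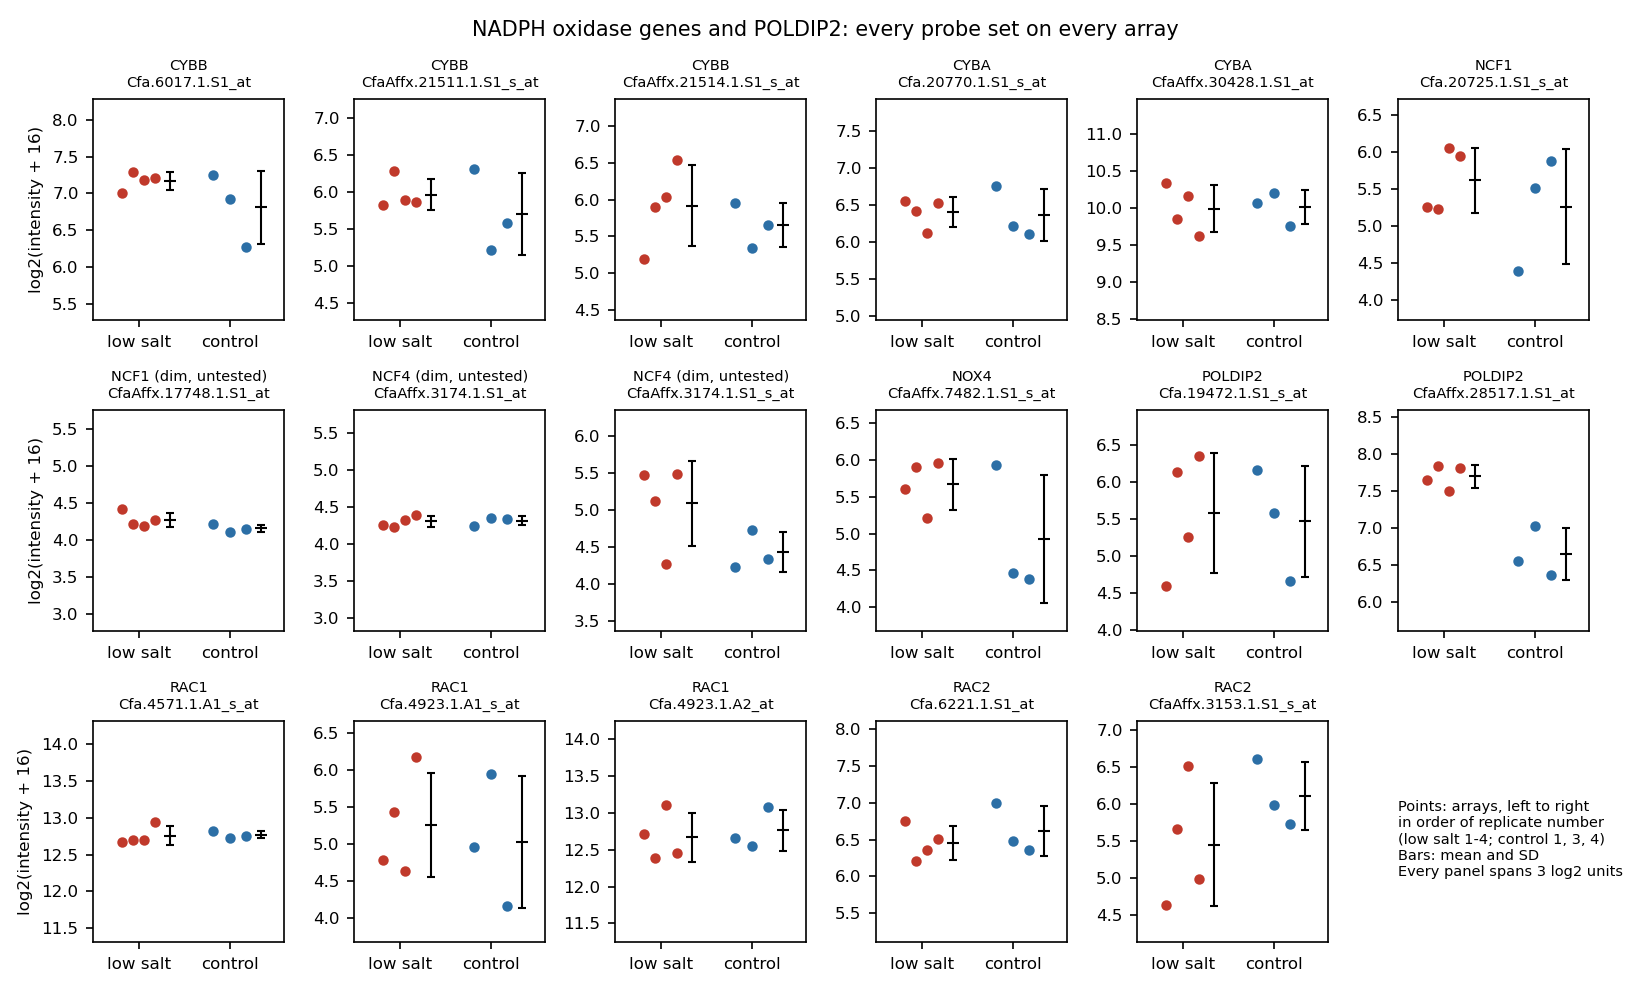
Log2(intensity + 16) of all 17 probe sets after quantile normalization, 1 panel each, with low salt (red, 4 arrays) left of control (blue, 3 arrays) and the mean and SD as bars. The panel of POLDIP2 CfaAffx.28517.1.S1_at is the 1 where the groups do not overlap.

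The cytosolic organisers gave weak signal. NCF1 was tested through Cfa.20725.1.S1_s_at, which read 15.1, 14.5, 68.0 and 29.7 in low-salt samples 1 to 4, against 5.84, 29.9 and 67.4 in controls 1, 3 and 4. Its highest values came from low-salt 3 and control 4, the arrays with the highest medians, and its lowest from control 1. The difference was 0.36 ± 0.42 (SE, limma adjusted p = 0.796), and it was -0.08 without control 1.

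The second NCF1 probe set and both NCF4 probe sets were below the filter on mean signal. CfaAffx.17748.1.S1_at (NCF1) read 1.36 to 3.53 in low salt and 1.08 to 3.21 in controls, and CfaAffx.3174.1.S1_at (NCF4) read 1.53 to 6.28 and 3.49 to 7.53. The other NCF4 probe set, CfaAffx.3174.1.S1_s_at, read 19.9, 12.6, 5.33 and 17.7 in low-salt samples 1 to 4, against 3.25, 10.3 and 7.62 in controls 1, 3 and 4. After normalization 3 of its 4 low-salt values lay above every control and low-salt 3 lay among the controls. The difference was 0.66 ± 0.34 (SE) in the fit without a filter (limma adjusted p = 0.561), at a signal below the offset of 16 in most samples.

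RAC1, the RAC GTPase of most cell types, was bright in 2 of its 3 probe sets, and these gave the narrowest intervals under quantile normalization. Cfa.4571.1.A1_s_at read 7144, 7098, 5718 and 7714 in low-salt samples 1 to 4, against 7671, 7564 and 5704 in controls 1, 3 and 4. Both groups covered nearly the same range. The difference was -0.01 ± 0.11 (SE), with an interval of -0.24 to 0.22, and for Cfa.4923.1.A2_at it was -0.09 ± 0.17 (SE), with an interval of -0.46 to 0.27. The precision depended on the scaling. On the deposited scale the SE of Cfa.4571.1.A1_s_at was 0.19. After array medians had been made equal the 2 probe sets stood at 0.42 ± 0.41 (SE) and 0.37 ± 0.38 (SE), where the median of all tested probe sets was 0.26. The dim one, Cfa.4923.1.A1_s_at, differed by 0.23 ± 0.49 (SE).

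RAC2, the form of blood cells, was lower in both probe sets without passing. Cfa.6221.1.S1_at read 78.1, 44.2, 84.6 and 55.8 in low-salt samples 1 to 4, against 127, 72.3 and 94.2 in controls 1, 3 and 4. The difference was -0.16 ± 0.29 (SE), and it was 0.04 without control 1. CfaAffx.3153.1.S1_s_at read 6.03, 24.1, 94.7 and 9.16 in low salt, against 96.9, 47.2 and 59.4 in controls. On this probe set 3 low-salt samples lay below every control and low-salt 3 lay inside the control range, near its top.

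The difference of that second RAC2 probe set was -0.66 ± 0.44 (SE, limma adjusted p = 0.614), with an interval of -1.61 to 0.29. It was -1.01 without low-salt 3 (unadjusted p = 0.0242, limma adjusted p = 0.293) and -1.20 without low-salt 3 and control 4 (unadjusted p = 0.0114, limma adjusted p = 0.201). That pair was chosen after seeing the data. Low-salt 3 was the highest low-salt array here and control 4 the lowest control on the log2 scale, so leaving them out enlarges the drop. The difference was -0.39 without low-salt 1 and -0.39 without control 1, with unadjusted p of 0.389 and 0.441 by limma. RAC1 and RAC2 are close paralogs, and whether a probe set of one also reads the other was not tested.

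**Figure D3:**
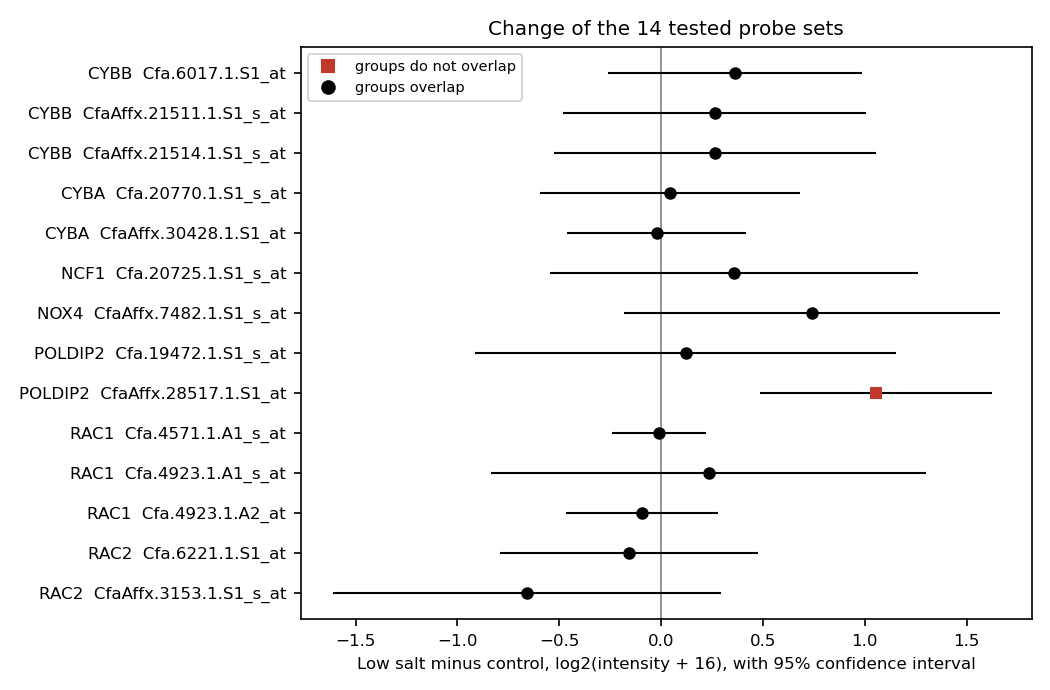
Low salt minus control change of the 14 tested probe sets on the log2(intensity + 16) scale, with 95% confidence intervals from limma. The interval of POLDIP2 CfaAffx.28517.1.S1_at, from 0.49 to 1.62, is the 1 that leaves out 0. That of RAC1 Cfa.4571.1.A1_s_at is the narrowest under quantile normalization.

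Taken over the 14 tested probe sets, several of which read the same gene, 9 changes were above 0 and 5 below, with a median of 0.18. Over all 28616 tested probe sets 15427 changes were above 0 and 13189 below, and the median was 0.04, with quartiles of -0.25 and 0.31. The median of the 14 was -0.05 on the deposited scale and 0.39 after array medians had been made equal, where that of all tested probe sets was -0.18 and 0.26. Both NCF4 probe sets and 1 of NCF1 are missing from these counts through the filter, which used the mean over all arrays and not the groups.

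**Figure D4:**
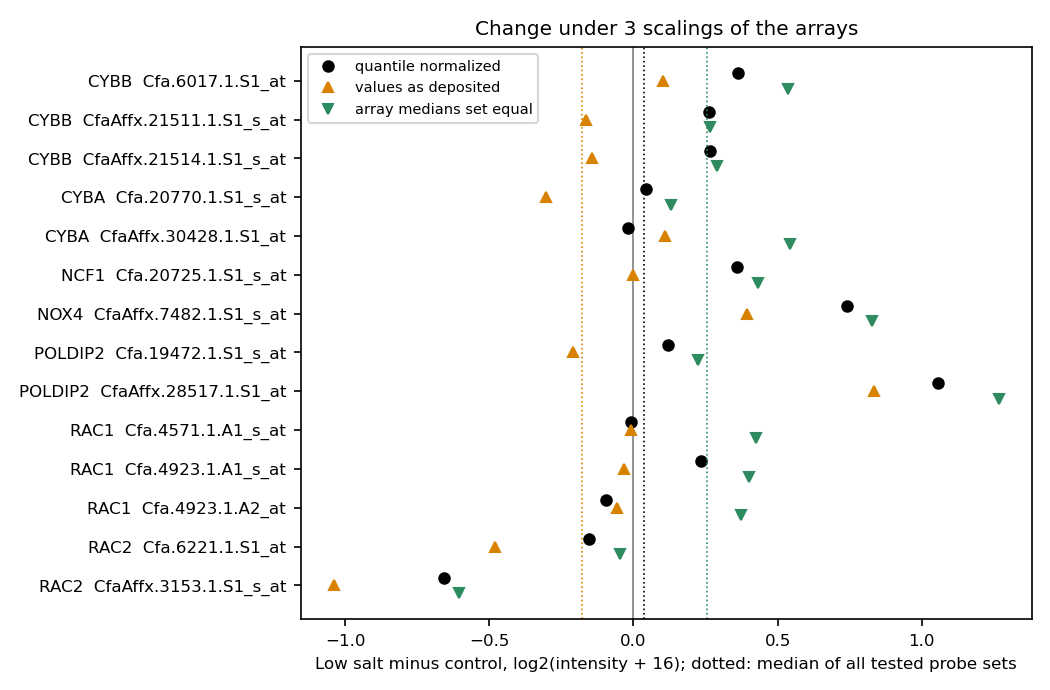
Low salt minus control change of the 14 tested probe sets under 3 scalings of the arrays, on the log2(intensity + 16) scale, with dotted lines at the median of all tested probe sets (0.04, -0.18 and 0.26). POLDIP2 CfaAffx.28517.1.S1_at lies at 0.83 to 1.27, and probe sets of CYBA, RAC1, NCF1 and CYBB and the other POLDIP2 probe set cross 0.

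CYBB, NCF1, NCF4 and RAC2 are expressed mainly by white blood cells, so markers of these cells are given beside them. In whole ventricle RNA, fewer cells of a type and less RNA per cell cannot be told apart. Of 16 macrophage markers all were tested and 11 lay above 0, with a median change of 0.23 (-0.0037 on the deposited scale and 0.43 after array medians had been made equal). C1QB (1.01 ± 0.26, SE), MARCO (1.75) and C1QC (0.88) were higher and FCER1G (-1.01) lower at an unadjusted p under 0.05, genes named after their values were seen. That is 4 of 16, where 10.5% of all genes had such a p at their brightest probe set, and none of the 16 (0 in limma) had an adjusted p under 0.05. Their summed deposited intensity was 4585 to 5558 in low salt and 3550 to 5877 in controls.

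The other blood cell markers were weaker. Of the neutrophil markers 6 were tested, with a median change of -0.05. By limma 0 had an unadjusted p under 0.05, against 10.5% of all genes. The marker sums were 193 to 879 in low salt and 254 to 746 in controls. Low-salt 3 and control 4 held the highest of these sums, and the granule genes MPO, ELANE and LTF were below the filter. Of the lymphocyte markers 8 were tested, with a median of -0.07 and sums of 120 to 355 in low salt and 399 to 826 in controls, which did not overlap, while their mean log2 level did (5.28 to 5.997 in low salt and 5.61 to 6.24 in controls). The other 7 markers lay between -0.32 and 0.12. CD4 (-1.95 ± 0.46, SE, limma adjusted p = 0.121), which dog neutrophils also carry, was the 1 of the 8 with an unadjusted p under 0.05, against 10.5% of all genes. The B cell genes CD79A, CD79B and MS4A1 were below the filter. No marker value was listed at 0, and the part of these cells in the RAC2 and CYBB values was not tested.

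Changes of the wider oxidase family and its partners lay on both sides of 0. Among catalytic subunits and DUOX enzymes 5 of 7 genes were tested, 3 above and 2 below 0, with 0 at an unadjusted p under 0.05 by limma, against the same 10.5%. DUOX2, a dual oxidase of epithelia, read at 5.31 ± 0.11 (SD, n = 4) in low salt and 5.73 ± 0.21 (SD, n = 3) in controls on the log2 scale, without overlap but with a limma adjusted p of 0.658, and its other probe set, below the filter, differed by 0.17. NOX1, the colon and vessel wall form, differed by 0.38 ± 0.35 (SE). NOX3 and DUOX1 were below the filter.

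Of 17 oxidase partners 13 were tested, 6 above and 7 below 0, with a median of -0.01. POLDIP2 was higher and SH3PXD2A lower at an unadjusted p under 0.05, against 5.61% and 4.86% of all genes. SH3PXD2A encodes TKS5, a scaffold related to p47phox that works in podosomes. Its 1 probe set read 4.90, 4.89, 6.70 and 5.75 in low-salt samples 1 to 4 on the log2 scale, against 7.05, 6.88 and 7.23 in controls 1, 3 and 4. All low-salt values lay below the controls, and the difference was -1.50 ± 0.42 (SE, limma adjusted p = 0.205). RAP1A, a GTPase found with the phagocyte cytochrome, differed by 0.32 ± 0.20 (SE) at its brighter and 0.04 at its other probe set.

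Upstream receptors, kinases and RAC regulators, 25 tested of 35, had 13 genes above and 12 below 0 and a median of 0.02. At the brightest probe set 3 were higher and 1 lower at an unadjusted p under 0.05, against 5.61% and 4.86% of all genes. The limma count at an adjusted p of 0.05 was 0, against 0.272% of all genes. TLR4, the endotoxin receptor that signals to NOX enzymes, had 3 probe sets that disagreed in sign: 0.72 ± 0.27 (SE) at the brightest, 1.15 and -0.97 at the others, each with an unadjusted p under 0.05. Thioredoxin TXN differed by 0.57 at its brightest probe set and by 0.68 at another. The protein kinase C form PRKCD, which can phosphorylate p47phox, differed by 0.84 (limma adjusted p = 0.413). Another form, PRKCB, differed by 0.35 at its brightest probe set and by -0.99 (limma adjusted p = 0.406) at another. PRKCD and PRKCB were named after their values were seen. PLCG2, a phospholipase of white blood cells, differed by -1.04 ± 0.38 (SE) and -0.03, and the angiotensin receptor AGTR2 by -1.54 ± 0.43 (SE, limma adjusted p = 0.203) and by -0.37 at a probe set below the filter.

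Other superoxide sources, 10 tested of 12, had 3 genes above and 7 below 0, a median of -0.02 and 1 gene, MAOA, at an unadjusted p under 0.05. MAOA, the monoamine oxidase of the outer mitochondrial membrane that makes hydrogen peroxide, averaged 6.28 ± 0.33 (SD, n = 4) in low salt and 7.37 ± 0.15 (SD, n = 3) in controls. The groups did not overlap, the difference was -1.08 ± 0.28 (SE, limma adjusted p = 0.166), and its other probe set differed by -0.13. At probe sets of smallest p, CYB5R3 differed by 0.82 and CYP1B1 by -0.98, against -0.02 and -0.24 at their brighter ones, and PTGS2 by 0.85. These lists were chosen with earlier results of the same data known, and over all 4 lists 4 of 53 genes were higher and 3 lower at an unadjusted p under 0.05, against 5.61% and 4.86% of all genes. The medians of the catalytic, partner, upstream and other lists moved with the scaling: they were 0.0083, -0.0084, -0.38 and -0.10 on the deposited scale, and 0.44, 0.42, 0.05 and 0.33 after array medians had been made equal.

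**Figure D5:**
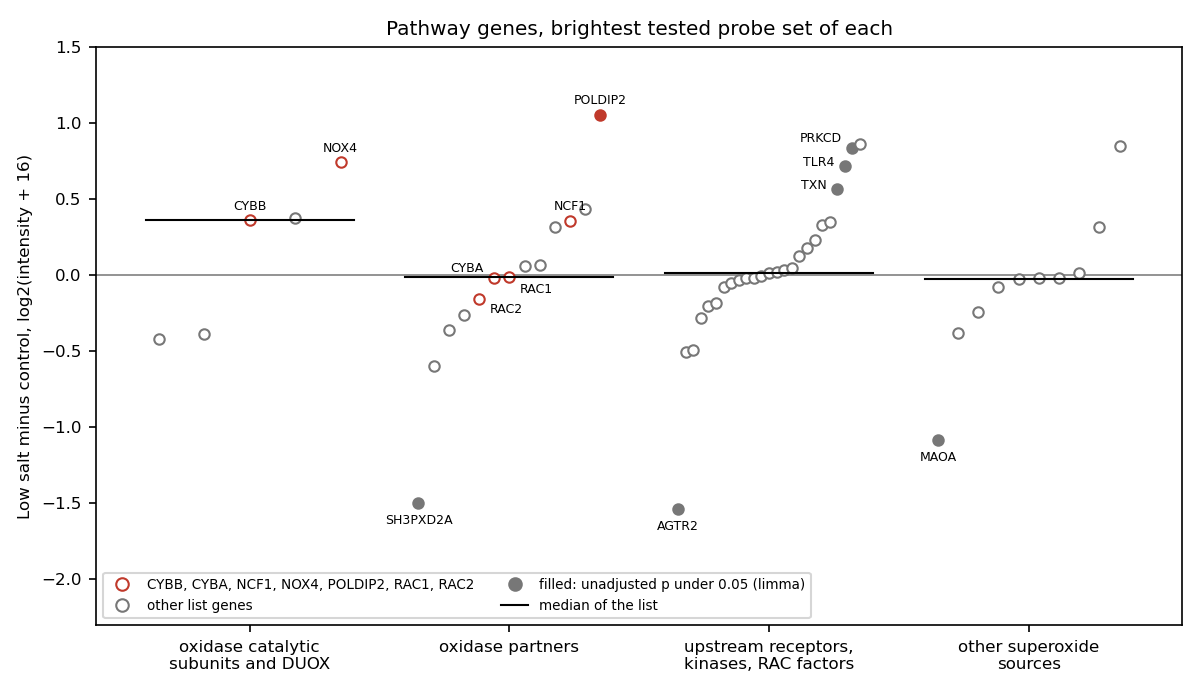
Low salt minus control change of the brightest tested probe set of each pathway gene, on the log2(intensity + 16) scale, by list, with list medians as lines. Filled points had an unadjusted p under 0.05, and the 4 medians lie at 0.36, -0.01, 0.02 and -0.02 under quantile normalization, and -0.38 to 0.0083 on the deposited scale.

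The genes with the pattern most like each member over the 7 arrays were found by Pearson correlation of log2 values at brightest probe sets, over 11374 other genes. For POLDIP2 these were ATP8B2, METTL16 and SUOX, at 0.99, 0.98 and 0.97, with changes of 0.87, 0.82 and 0.75. For NOX4 they were SELP, PGM5 and EGLN2 (0.98, 0.98 and 0.97), and for CYBB TUBA8, GYPC and AEBP2 (0.98, 0.98 and 0.97). OPRD1, CD81 and RACK1 came closest to CYBA (0.97, 0.97 and 0.96), and CMTM2, SNX2 and LSM8 to NCF1 (0.99, 0.98 and 0.98). NASP, SARNP and TMBIM4 came closest to RAC1 (0.99, 0.98 and 0.98), and ICMT, KRT12 and E2F4 to RAC2 (0.99, 0.95 and 0.94). With 7 arrays such values are common, and 146 genes exceeded 0.9 with POLDIP2, 64 with NOX4, 58 with CYBB and 16 with RAC1. NCF4, below the filter, was left out.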

How the data were processed

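Per the labels' protocols, biotin-labelled RNA from dog left ventricle, isolated with Trizol, went onto Affymetrix canine arrays with 1 colour. The deposited probe set intensity values came from GCOS, per the submitters' processing notes; no version, summarisation method or genome build is stated there, so no coordinates are given. The 2% trimmed mean of each array was about 150.05, so the arrays had been scaled to a common mean. Groups and numbers were taken from the sample titles.

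Log2(intensity + 16) was quantile normalized. After 111 control probe sets and the third of lowest mean over all arrays had been left out, limma 3.58.1 (lmFit and eBayes with trend, R 4.3.3) compared low salt with control over 28616 probe sets with Benjamini-Hochberg adjustment. The fit was checked on simulated data. Named genes were all members and up to 4 genes of smallest p per pathway list, with exceptions stated beside them; 3 genes per member were named for likeness. The members and lists were chosen with earlier results of these data known. Names come from the platform annotation, where 29254 probe sets have 1 symbol, 439 several and 13231 none; the 8 gene numbers carry the same symbols in the gene table of assembly UU_Cfam_GSD_1.0. Alternatives changed the offset, the scaling, the filter, the test, array weights and the replicate block, and left out arrays.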

Additional observations from a re-analysis of the deposited data

Results flagged for a closer look

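In the low-salt group 2 of the 17 probe sets had 1 array far from the other 3. RAC1 Cfa.4571.1.A1_s_at stood at 12.94 on the log2 scale in low-salt 4 and at 12.68 to 12.70 in the others, a gap of 0.905 of the group's range. CYBB CfaAffx.21511.1.S1_s_at stood at 6.28 in low-salt 2 and at 5.82 to 5.89 in the others, a gap of 0.837 of the range. By Dixon's test at the 95% level chance passes the limit in about 1 of 20 groups, and 6.13% of all tested probe sets passed it.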

How the results depend on the processing

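In all 17 alternatives 0 members passed an adjusted p of 0.05. The POLDIP2 difference at CfaAffx.28517.1.S1_at kept its sign in all 17, from 0.78 to 1.27. Of the member probe sets 1 had an unadjusted p under 0.05 in most settings and 1 to 2 with single arrays left out. The count was 2 without low-salt 3 and control 4, an alternative chosen after seeing the data. Of all 28616 tested probe sets, 3161 had such a p in the main fit. That number was 2279 to 3895 with single arrays left out and 4324 without low-salt 3 and control 4. With a 2-fold change as well the member count was 0 with offset 64, on the deposited scale and with array weights. It was 0 to 2 with single arrays left out, and 2 without those 2 arrays. Over the array that threshold gave 215, 2164, 1425, 1131 to 2093 and 2304 in the same order, against 1260 in the main fit. The difference between the POLDIP2 probe sets was 0.56 to 1.22 with single arrays left out. Sign changes, all of differences that had not passed, were as follows; the cause was not tested. With the values as deposited CYBB stood at -0.17 and -0.14, CYBA at -0.30 and 0.11, NCF1 at -0.0017, POLDIP2 Cfa.19472.1.S1_s_at at -0.21 and RAC1 Cfa.4923.1.A1_s_at at -0.032. With array medians set equal CYBA stood at 0.54 and RAC1 at 0.42 and 0.37. With the replicate block CYBA stood at 0.026, POLDIP2 Cfa.19472.1.S1_s_at at -0.061 and RAC1 at 0.0082 and 0.00015. Without low-salt 3 and control 4 POLDIP2 Cfa.19472.1.S1_s_at stood at -0.15 and RAC1 Cfa.4571.1.A1_s_at at 0.0029. With single arrays left out the ranges were -0.083 to 0.25 and -0.14 to 0.10 for CYBA, -0.075 to 0.65 for NCF1, -0.27 to 0.46 for POLDIP2 Cfa.19472.1.S1_s_at, -0.075 to 0.016, -0.19 to 0.70 and -0.24 to 0.063 for RAC1 and -0.29 to 0.038 for RAC2 Cfa.6221.1.S1_at. Deviations of same-numbered arrays from their group means correlated at 0.07, -0.26 and -0.18 for numbers 1, 3 and 4. Such correlations cannot show whether the numbers pair the samples, and the sample titles state no pairing. With the replicate block the POLDIP2 difference was 1.01 (limma adjusted p = 0.705), and all calls over the array fell to 27, against 98 without it. Over the other alternatives that count ran from 4 (the methods' t-test) to 378 (without low-salt 3 and control 4).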

Other observations

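Genes next to POLDIP2, chosen after its values were seen, were read at their brightest probe sets. In the gene order of assembly UU_Cfam_GSD_1.0 its nearest protein-coding neighbours are TNFAIP1 and TMEM199, which differed by -0.04 ± 0.15 (SE) and -0.18 ± 0.39 (SE) between low salt and control, and IFT20 beyond TNFAIP1 differed by 0.14 ± 0.26 (SE). Of 18 tested neighbours within 2 genes of the members, 2 had an adjusted p under 0.05 by limma. Of all genes 0.272% had one at their brightest probe set. Both of these neighbours lie on the same side of NCF4, next to each other, so they are not 2 separate cases. No test of neighbours was planned, and whether they differ from other genes was not tested. RAC2 and NCF4 lie on the same chromosome with 9 protein-coding genes between them. Named after their values were seen, PVALB, the neighbour of NCF4 that encodes the calcium buffer parvalbumin, differed by -1.50 on the log2 scale (limma adjusted p = 0.0439), and the next gene, IFT27, by 1.91 (limma adjusted p = 0.0344), while CSF2RB on the other side differed by -0.78 (limma adjusted p = 0.618).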
